A study of Mus musculus with 17 samples.

Results

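Transcripts of 8 enzymes of heme synthesis were followed in hematopoietic stem and progenitor cells of mouse bone marrow (HSPC), the source of all blood cells, after an inflammatory challenge. The 8 genes, *Alas1*, *Alas2*, *Alad*, *Uros*, *Urod*, *Cpox*, *Ppox* and *Fech*, were taken by symbol from the 35321 gene symbols of the deposited table of raw counts, and all 8 passed the filter on low counts that left 14920 genes for testing. The third step of the pathway was not analysed here. All mice were wild-type C57BL/6J, an inbred strain, and each received an intraperitoneal injection before its marrow was collected and HSPC were sorted by flow cytometry. The PBS group (5 libraries) received phosphate-buffered saline and is titled day 0. There were 2 groups of 3 libraries each that received lipopolysaccharide (LPS, a component of the outer membrane of bacteria that triggers inflammation) 24 h or 72 h before collection. A further 2 groups of 3 libraries each received LPS and, in addition, an antibody blocking the receptor of interleukin-10 (IL-10R), a cytokine that restrains inflammation, also 24 h or 72 h before collection. No group received the antibody without LPS. For the injected amounts the sources disagree: 5 µg of LPS and 100 µg of antibody in the series text, and the same figures in mg in the sample protocol. Neither was taken as correct. The labels give neither the age or sex of the mice nor the markers used in the sort, and they do not say whether a library came from 1 mouse or a pool. P-values therefore measure the spread between these libraries.

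Heme is an iron-holding ring that serves hemoglobin, cytochromes and catalase. Its synthesis starts in the mitochondrion, where ALA synthase joins glycine and succinyl-CoA to 5-aminolevulinic acid (ALA), goes on in the cytosol and ends in the mitochondrion, where iron is inserted into protoporphyrin. ALA synthase is the step that sets the rate, and it has a pair of genes: *Alas1*, used in most tissues and repressed by heme, and *Alas2*, used in the erythroid lineage, driven by the erythroid factor GATA1 and limited by iron through the translation of its mRNA. In the marrow, the demand of erythroid precursors for hemoglobin makes them the main site of heme synthesis, so that *Alas2* also serves as an erythroid marker.

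The iron-responsive element (IRE) of *Alas2* is shown because it is 1 known difference in control between the erythroid and the general ALA synthase transcripts. It acts on translation, which RNA counts do not measure. An IRE is a short hairpin in the untranslated end of an mRNA to which iron regulatory proteins bind when iron is scarce. It was searched on the sense strand of the annotated 5′ untranslated regions as a C, any 5 bases, the loop CAGTGN and 5 bases that pair with the 5 before the loop, G-T pairs allowed. Of the 8 enzymes only *Alas2* held a match, and 31 of 20952 genes with such a region did (0.148%). In the following sequence, read from GENCODE vM21 transcripts of the GRCm38 build and written 5′ to 3′, capitals mark the loop.
Alas2 IRE: ggttcgtcctCAGTGCagggcaaca
The stretch shown, which is the match with a few bases on each side, covers bases 86 to 110 of a 5′ untranslated region of 126 bases, lies in exon 1 at chrX:150547460-150547484 on the plus strand, and was present in 2 annotated transcripts. A match of letters describes the sequence, and the binding of proteins to it was not measured.

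Total counts ran from 10516722 to 16006001 per library, of which the 8 transcripts together took 0.0301% to 0.0894%. The library most unlike the rest was number 1 of the LPS group at 24 h, in which 16431 genes were detected and whose scaling factor was 0.799, while the other factors lay between 0.947 and 1.12. Levels are given as CPM, the count of a gene per 1000000 of the scaled total count of its library. All 10 HSPC markers checked (*Kit*, *Ly6a*, *Cd34* and others) were detected in every library. Their summed level was 1940 ± 303 CPM (SD, n = 5) with PBS, 1030 ± 88.3 (n = 3) with LPS at 24 h, 1230 ± 166 (n = 3) with LPS and antibody at 24 h, 1890 ± 298 (n = 3) with LPS at 72 h and 1430 ± 325 (n = 3) with LPS and antibody at 72 h. The sum was mostly *Cd34*, *Flt3* and *Kit*, with PBS means of 691, 446 and 399 CPM. The mean of *Ly6a* was higher at 24 h instead, at 61.7 CPM with PBS, 162 with LPS and 285 with LPS and antibody. Of the 10, 0 were called higher and 7 lower with LPS at 24 h against PBS, where 37.6% of all tested genes were called. With LPS and antibody at 24 h, 1 was called higher and 6 lower, where 24.2% were called. Markers of macrophages and neutrophils were detected too. The summed level of 14 macrophage markers was 526 to 3950 CPM with PBS and 169 to 608 CPM in the other groups, and that of 9 neutrophil markers was 2530 to 17600 CPM over all libraries. The neutrophil sum was mostly *Mpo*, with a mean of 5410 CPM of 8430 CPM in PBS. *Camp*, *Ltf*, *Ngp*, *S100a8* and *S100a9* had PBS means of 21.5 to 180 CPM. The sum therefore does not by itself show mature neutrophils.

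In PBS the general ALA synthase had the highest mean of the 8 transcripts and the erythroid one the lowest. Divided by the length of the principal annotated transcript, *Alas1* stood at 56.1 ± 30.6 CPM per kilobase (SD, n = 5), followed by *Urod* at 39.1 ± 4.94, *Alad* at 32.6 ± 4.48 and *Ppox* at 27.6 ± 3.31. Over all PBS libraries, the range of each of these 4 overlapped that of the next. Within each PBS library, by these lengths, *Urod* was above *Alad* and *Alad* above *Ppox*. The place of *Alas1* varied. It was below *Urod* in library 2 (35.8 against 36.7 CPM per kilobase) and below *Urod*, *Alad* and *Ppox* in library 5 (19.2). A lower tier held *Cpox* at 12.6 ± 3.26 and *Uros* at 7.62 ± 0.864 CPM per kilobase, which overlapped each other but not *Ppox*. *Fech* at 5.45 ± 0.738 and *Alas2* at 2.51 ± 1.11 CPM per kilobase came last, each below its neighbour in every PBS library. The order of the means was the same with the length of all merged exons in place of the principal transcript. Within PBS, *Alas1* (19.2 to 93.7 CPM per kilobase) and *Alas2* (1.14 to 4.07) varied most, and *Uros* and *Ppox* varied least.

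*Alas2*, the erythroid ALA synthase, had a lower mean in each treated group than in PBS, and the lowest 72 h after LPS alone. It stood at 5.59, 3.7, 5.68, 2.32 and 8.28 CPM in the 5 PBS libraries, from 37 to 118 counts each. With LPS at 24 h the values were 2.69, 0.824 and 1.91 CPM, and at 72 h they were 0.458, 0.0845 and 0.293 CPM, which rest on 5, 1 and 4 counts. Every library at 72 h was thus below every library at 24 h and every PBS library, whereas LPS library 1 at 24 h overlapped PBS library 4. With LPS and antibody the values were 5.53, 1.25 and 0.325 CPM at 24 h and 2.1, 0.374 and 0.495 CPM at 72 h, so that library 1 of each antibody group was well above the others, and at 24 h it reached the PBS range. *Alas2* fell between 24 h and 72 h after LPS, by 2.66 on the log2 scale (SE 0.977, 95% interval -4.73 to -0.58, adjusted p = 0.0494, edgeR quasi-likelihood test). That call lay at the threshold and was lost without LPS library 1 (-2.26, adjusted p = 0.138) or 3 (0.0903) at 24 h, and without library 1 (-3.15, 0.0757), 2 (0.146) or 3 (0.109) at 72 h. Upper-quartile factors (-2.53, adjusted p = 0.0595) and a fit with no filter (-2.67, 0.0543) did not call it either. It held in 5 of 12 alternatives. Against PBS the log2 change was -4.17 (SE 0.926) with LPS at 72 h, with an unadjusted p of 0.000385 and an adjusted p of 0.151, and -2.36 (SE 0.784) with LPS and antibody at 72 h, with an adjusted p of 0.0555. At 24 h it was -1.51 (SE 0.732, adjusted p = 0.117) with LPS and -1.09 (SE 0.71, adjusted p = 0.271) with LPS and antibody. In these bulk libraries fewer erythroid cells and less *Alas2* RNA per cell cannot be told apart.

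*Alas1*, the general ALA synthase, varied widely between PBS libraries and passed no test against them in the fit of all libraries. Its PBS values were 178, 122, 270, 318 and 65.4 CPM, with library 4 highest and library 5 lowest. LPS libraries stood at 402, 175 and 342 CPM at 24 h and at 174, 261 and 313 CPM at 72 h. With LPS and antibody they stood at 355, 390 and 303 CPM at 24 h and at 254, 353 and 319 CPM at 72 h. All 4 treated groups overlapped PBS, and no treated library was as low as PBS libraries 2 and 5. The log2 changes against PBS were all positive, from 0.39 (SE 0.386, adjusted p = 0.717) with LPS at 72 h to 0.87 (SE 0.382, adjusted p = 0.105) with LPS and antibody at 24 h. The latter was called without PBS library 4 (1.14, adjusted p = 0.0412).

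The balance between both synthases was read within each library as *Alas2* counts per 1000 *Alas1* counts. It was 31.4, 30.4, 21, 7.28 and 127 in PBS, and the highest value came from library 5, which had both the most *Alas2* and the least *Alas1*. After LPS it was 6.69, 4.7 and 5.6 at 24 h and 2.63, 0.323 and 0.934 at 72 h. With the antibody it was 15.6, 3.21 and 1.07 at 24 h and 8.28, 1.06 and 1.55 at 72 h. Both LPS groups were below all PBS libraries, and the antibody libraries numbered 1 were the only treated ones to reach the PBS range.

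**Figure D1:**
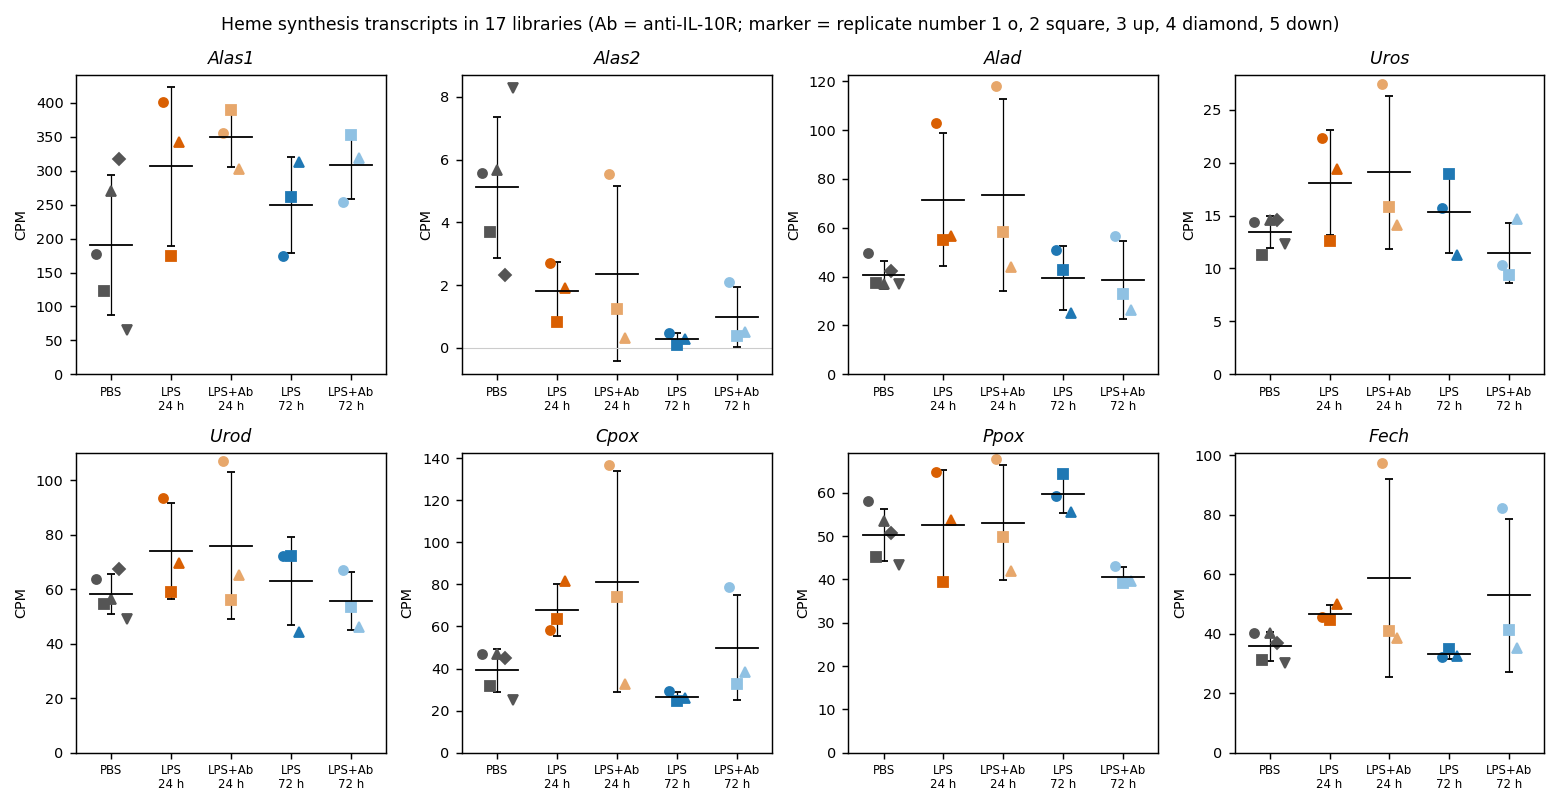
CPM (linear axis, 1 panel per enzyme) of the 8 heme synthesis transcripts in each of the 17 libraries, by group. Points are libraries and bars are the mean and SD. *Alas2* is at 0.0845 to 0.458 CPM 72 h after LPS against 2.32 to 8.28 CPM in PBS, and *Cpox* at 24.3 to 29.3 CPM 72 h after LPS against 58.1 to 81.7 CPM at 24 h.

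Of the cytosolic enzymes, *Alad* differed most from PBS at 24 h, and *Uros* and *Urod* differed less. *Alad*, whose product joins a pair of ALA molecules into porphobilinogen, stood at 49.8, 37.2, 37, 42.2 and 37 CPM in PBS and at 103, 55.1 and 56.5 CPM with LPS at 24 h. All 3 LPS libraries were above all PBS libraries, with a log2 change of 0.81 (SE 0.322, 95% interval 0.13 to 1.49) and an adjusted p of 0.058. At 72 h after LPS it held 50.8, 42.6 and 24.9 CPM, 1 library above the PBS range, 1 inside and 1 below it (log2 change -0.05, SE 0.33). Antibody libraries held 118, 58.1 and 44.1 CPM at 24 h and 56.7, 33 and 26.4 CPM at 72 h, again with library 1 highest.

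*Uros*, uroporphyrinogen III synthase, which closes the ring, stood at 11.3 to 14.6 CPM in PBS. It held 22.3, 12.6 and 19.4 CPM with LPS at 24 h (log2 change 0.43, SE 0.246, adjusted p = 0.184) and 15.7, 18.9 and 11.3 CPM at 72 h. Those groups overlapped PBS, as did the antibody groups, at 27.4, 15.8 and 14.1 CPM at 24 h and 10.3, 9.34 and 14.7 CPM at 72 h. *Urod*, uroporphyrinogen decarboxylase, which trims the side chains of the ring, stood at 48.9 to 67.3 CPM in PBS and at 93.4, 59.1 and 69.6 CPM with LPS at 24 h (log2 change 0.34, SE 0.221, adjusted p = 0.235). It held 72.2, 72.4 and 44.2 CPM with LPS at 72 h. In the antibody groups it held 107, 56.1 and 65.1 CPM at 24 h and 67.2, 53.4 and 46.3 CPM at 72 h, all groups overlapping PBS.

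Of the 3 late mitochondrial enzymes, *Cpox* was the one whose change passed a test. Coproporphyrinogen oxidase, its product, acts between the mitochondrial membranes. PBS libraries stood at 46.9, 31.7, 46.9, 44.9 and 25 CPM. LPS libraries stood at 58.1, 63.7 and 81.7 CPM at 24 h, all above PBS, and at 29.3, 24.3 and 25.8 CPM at 72 h, all below the 24 h values and at the lower end of PBS. *Cpox* fell between the times after LPS by 1.36 on the log2 scale (SE 0.418, 95% interval -2.25 to -0.47, adjusted p = 0.0226). The call was lost without LPS library 3 at 24 h (adjusted p = 0.0694) and without library 1 (0.0527), 2 (0.0685) or 3 (0.0601) at 72 h, while the change stayed between -1.44 and -1.22 in all alternatives tried. Against PBS the log2 change was 0.79 (SE 0.359, adjusted p = 0.0932) at 24 h and -0.56 (SE 0.377, adjusted p = 0.577) at 72 h.

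*Cpox* also rose with LPS and antibody at 24 h against PBS, by 1.06 on the log2 scale (SE 0.358, adjusted p = 0.0431). This call was lost in many of the alternatives, and the change was smallest without antibody library 1. The antibody libraries held 137, 74.1 and 32.5 CPM at 24 h, and the lowest of them lay inside the PBS range. Without library 1 the log2 change was 0.45 with an adjusted p of 0.363. The call was also lost without antibody library 2 (adjusted p = 0.0953) and without PBS library 2 (0.0893), 3 (0.0544), 4 (0.0534) or 5 (0.0907). Upper-quartile factors (adjusted p = 0.0635), a fit of only these groups (0.0648) and the replicate block (0.307) did not call it either. At 72 h the antibody libraries held 78.6, 32.7 and 38.5 CPM.

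*Ppox*, protoporphyrinogen oxidase, which acts on the inner membrane just before iron is inserted, showed the smallest changes from PBS at 24 h. It held 58.2, 45.3, 53.6, 50.7 and 43.4 CPM in PBS and 64.8, 39.5 and 53.8 CPM with LPS at 24 h (log2 change 0.07, SE 0.166, 95% interval -0.28 to 0.42). At 72 h it held 59.3, 64.3 and 55.7 CPM with LPS, which overlapped PBS, and 43.2, 39.1 and 39.7 CPM with LPS and antibody, below all LPS libraries at 72 h and all PBS libraries. The log2 difference between the antibody group and the LPS group at 72 h was -0.55 (SE 0.187, 95% interval -0.95 to -0.16, adjusted p = 0.0566). DESeq2's Wald test (adjusted p = 0.0326) and upper-quartile factors (-0.64, adjusted p = 0.0255) called it. *Fech*, ferrochelatase, which inserts the iron, stood at 40.3, 31.3, 40.4, 36.8 and 30.2 CPM in PBS and at 45.5, 44.7 and 49.9 CPM with LPS at 24 h, all above PBS (log2 change 0.38, SE 0.286, adjusted p = 0.309). It held 32, 35 and 32.5 CPM with LPS at 72 h. With the antibody it held 97.3, 40.8 and 38.5 CPM at 24 h and 82.2, 41.3 and 35.1 CPM at 72 h, so that library 1 was well above the other libraries of its group at both times.

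With LPS at 24 h against PBS, 0 of 8 were called (2 at an unadjusted p below 0.05), where 37.6% of all tested genes were called, 19.1% as higher. The median log2 change of the 8 was 0.40, against -0.03 over all tested genes. *Alad*, *Cpox* and *Fech* were above PBS in all LPS libraries, 3 of 8 transcripts, while 42.8% of all tested genes had libraries that did not overlap. For this comparison the deviations of equally numbered libraries correlated weakly (0.158 to 0.191), and the labels state no pairing. A blocked fit, with a term for the number, called 4 of 8. These were *Alas2* (log2 change -1.54, adjusted p = 0.0116), *Alad* (0.75, 0.0126), *Cpox* (0.71, 0.0161) and *Alas1* (0.69, 0.0376), in a fit that called 4776 of 14331 genes. An unblocked fit of the same 6 libraries called 2, *Alas2* (adjusted p = 0.034) and *Cpox* (0.0357).

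With LPS and antibody at 24 h against PBS, 1 of 8 was called, *Cpox*, where 24.2% of all tested genes were called, 11.7% as higher. That background moved with single libraries, from 3605 called genes to 877 without antibody library 2, 2278 without PBS library 5 and 2357 without PBS library 2. The median log2 change was 0.61, against 0.00 over all tested genes. At 72 h, 0 of 8 were called against PBS with LPS, where 0.0201% of all genes were called, and 0 of 8 with LPS and antibody, where 13.2% were called, 6.81% as higher. The last background of 1975 genes was 583 without antibody library 3, 693 without library 1 and 941, 1223 and 1019 without PBS libraries 2, 3 and 5. At an unadjusted p below 0.05, *Alas2* alone passed in each. DESeq2's Wald test also called *Alas2* alone of the 8 in each, with an adjusted p of 0.000323 with LPS and 0.0138 with LPS and antibody.

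Between 24 h and 72 h after LPS, 2 of 8 transcripts were called, *Alas2* and *Cpox*, both lower at 72 h, where 31.1% of all genes were called, 16.4% as lower. *Alas2*, *Alad*, *Cpox* and *Fech* were below all 24 h libraries at 72 h, 4 of 8, against 45.4% of all tested genes with libraries that did not overlap. *Alad* missed the threshold (log2 change -0.86, SE 0.369, adjusted p = 0.0892), as did *Fech* (-0.49, SE 0.324, adjusted p = 0.259), which a fit of only these groups called (adjusted p = 0.0351). The median log2 change of the 8 was -0.39, against 0.02 over all tested genes. Between the same times with the antibody, all 8 differences were negative, from -0.16 for *Fech* to -1.27 for *Alas2*, and 0 were called, where 0% of all genes were called. *Alad* and *Uros* had an unadjusted p of 0.0242 and 0.0189 there, 635 of the tested genes had one below 0.05, and DESeq2 called 1 gene.

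Whether blocking the receptor changed the response was asked by comparing LPS and antibody with LPS alone at each time. At 24 h the log2 differences ran from 0.01 for *Ppox* (95% interval -0.38 to 0.41) to 0.41 for *Alas2* (SE 0.794), and 0 of 8 were called, as were 0% of all genes (273 genes and 0 of the 8 at an unadjusted p below 0.05, and 1 gene by DESeq2). At 72 h again 0 of 8 were called, where 15.1% of all genes were called, 8.64% as higher. *Cpox* (0.91, SE 0.416, adjusted p = 0.14) and *Fech* (0.67, SE 0.325, adjusted p = 0.163) were higher in all antibody libraries than in all LPS libraries, and *Ppox* was lower. These 3 of 8 compare with 33.2% of all tested genes. *Alas2* differed by 1.81 (SE 1.01, adjusted p = 0.229). A change of the antibody effect from 24 h to 72 h was called for 0 of 8, where 6.35% of all genes were called, 4.03% as higher, and *Ppox* had the lowest adjusted p (-0.57, SE 0.263, adjusted p = 0.199). The comparisons with PBS share the PBS libraries, and those between times and antibody groups share the LPS libraries, so they are not independent of each other.

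**Figure D2:**
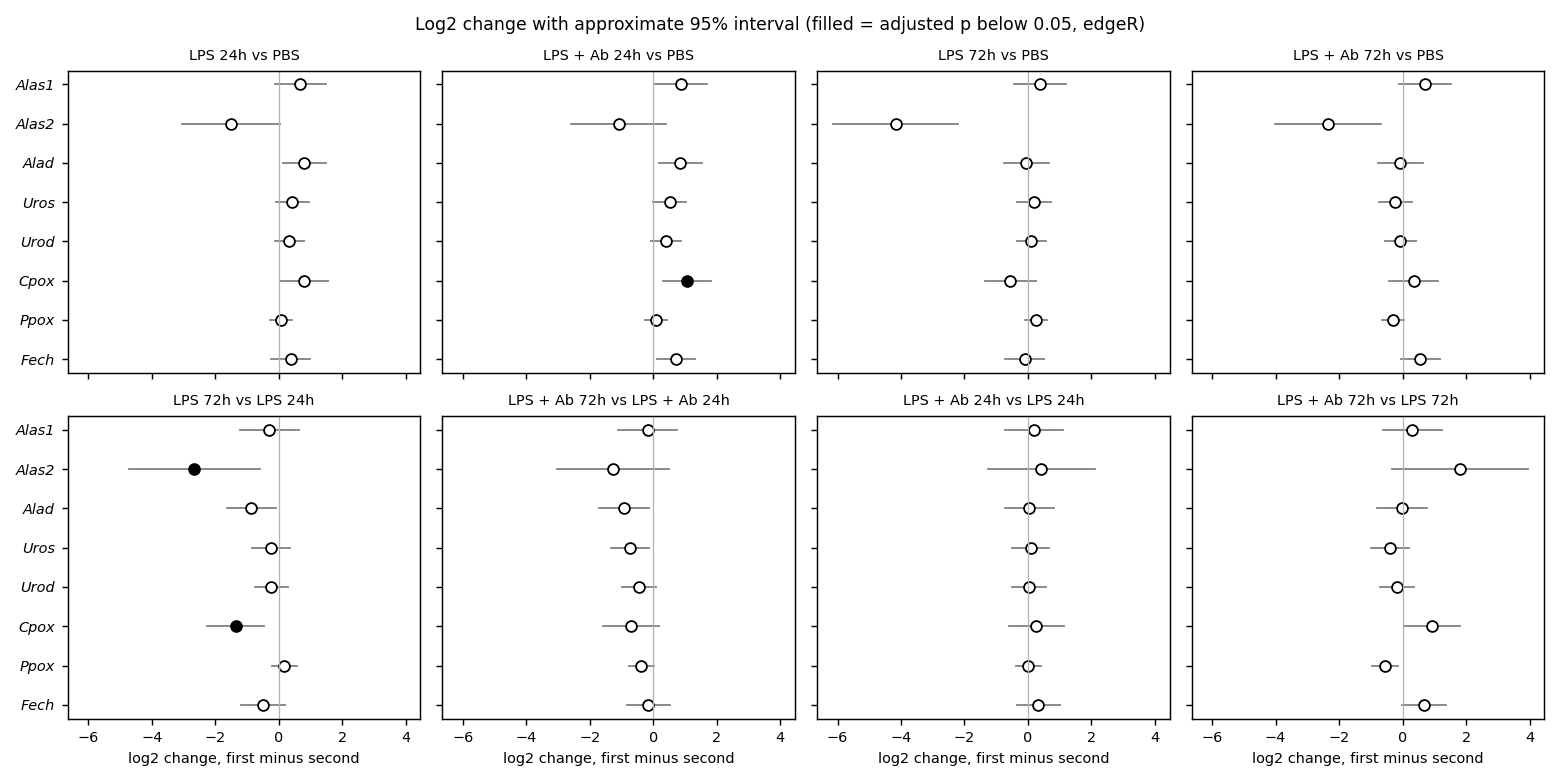
Log2 differences of the 8 transcripts in the planned comparisons of groups, with approximate 95% intervals from edgeR's quasi-likelihood fit of 17 libraries. Filled points mark an adjusted p below 0.05, which *Cpox* reached with LPS and antibody at 24 h against PBS (1.06) and *Alas2* (-2.66) and *Cpox* (-1.36) between 24 h and 72 h after LPS.

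Markers of erythroid cells moved with several of these transcripts. The summed level of 29 erythroid markers (early ones such as *Gata1*, *Klf1* and *Epor* included, and none of the 8 enzymes) was 816 to 1290 CPM with PBS. It was 1740, 1030 and 2050 CPM with LPS at 24 h and 783, 472 and 278 CPM at 72 h. With the antibody it was 4570, 1180 and 364 CPM at 24 h and 2660, 613 and 233 CPM at 72 h. The libraries numbered 1 of both antibody groups, which held the most *Alad*, *Cpox* and *Fech* of their groups, were thus also the ones richest in erythroid markers. Of the 29, 0 were called higher and 2 lower with LPS at 24 h against PBS, where 37.6% of all genes were called. The largest PBS means were those of *Car2* (303 CPM) and *Nfe2* (165 CPM), beside 1030 CPM for the sum. *Nfe2* moved otherwise after LPS, with means of 145 CPM at 24 h and 183 CPM at 72 h. The 6 markers of hemoglobinised cells, the 4 globin genes, *Slc4a1* and *Epb42*, are part of the 29 and had another order in sum. Their sum was 62.2 to 211 CPM with PBS and already lower with LPS at 24 h, at 43.6, 26.6 and 40.8 CPM, before it reached 14.7, 5.07 and 4.61 CPM at 72 h. With the antibody it was 167, 17.7 and 11.1 CPM at 24 h and 24.2, 23.1 and 3.18 CPM at 72 h. Of these 6 markers, 4 were at 0 in antibody library 3 at 24 h, 1 and 4 in LPS libraries 2 and 3 at 72 h, and 5 in antibody library 3 at 72 h. None was at 0 in PBS or with LPS at 24 h. With LPS at 24 h against PBS, 1 of the 6 was called lower, where 2767 of all 14920 tested genes were. This was *Hbb-bt* (log2 change -1.63, adjusted p = 0.0152), and *Epb42* had a change of 0.37.

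Across the 17 libraries, described with no test because libraries of a group share their treatment, *Alad* (Pearson r 0.82, Spearman rho 0.79), *Cpox* (0.81, 0.82) and *Fech* (0.76, 0.73) followed the 29 erythroid markers on the log2 scale. Within groups, after removal of group means, r was 0.86, 0.83 and 0.88. Leaving out the pair of libraries farthest from the median of the markers gave 0.68, 0.81 and 0.68. *Urod* (0.68, or 0.44 without that pair), *Uros* (0.43, or 0.24) and *Ppox* (0.37, or 0.04) followed them less closely, and *Alas1* did not (0.04). *Alas2* had r 0.68 and rho 0.64 with the 29 erythroid markers (0.64 without that pair, 0.81 within groups) and r 0.92 and rho 0.92 with the markers of hemoglobinised cells (0.94 without the 2 libraries farthest in those, 0.78 within groups). *Alas1* instead went with the sum of the 9 neutrophil markers (r 0.71, rho 0.55, 0.58 without the 2 farthest libraries, 0.81 within groups). It went against the sum of the HSPC markers (r -0.69, rho -0.80, then -0.64 and -0.68 in the same order). The neutrophil sum was mostly *Mpo*, and the 9 did not move as 1 list. With LPS at 24 h the means of *Elane*, *Mpo*, *Prtn3* and *Ctsg* were above those in PBS. The means of *Camp*, *Ltf*, *Ngp*, *S100a8* and *S100a9* were below them, and 0 of 9 were called, where 37.6% of all genes were. The part of the cell make-up in the changes of the 8 transcripts was not tested.

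**Figure D3:**
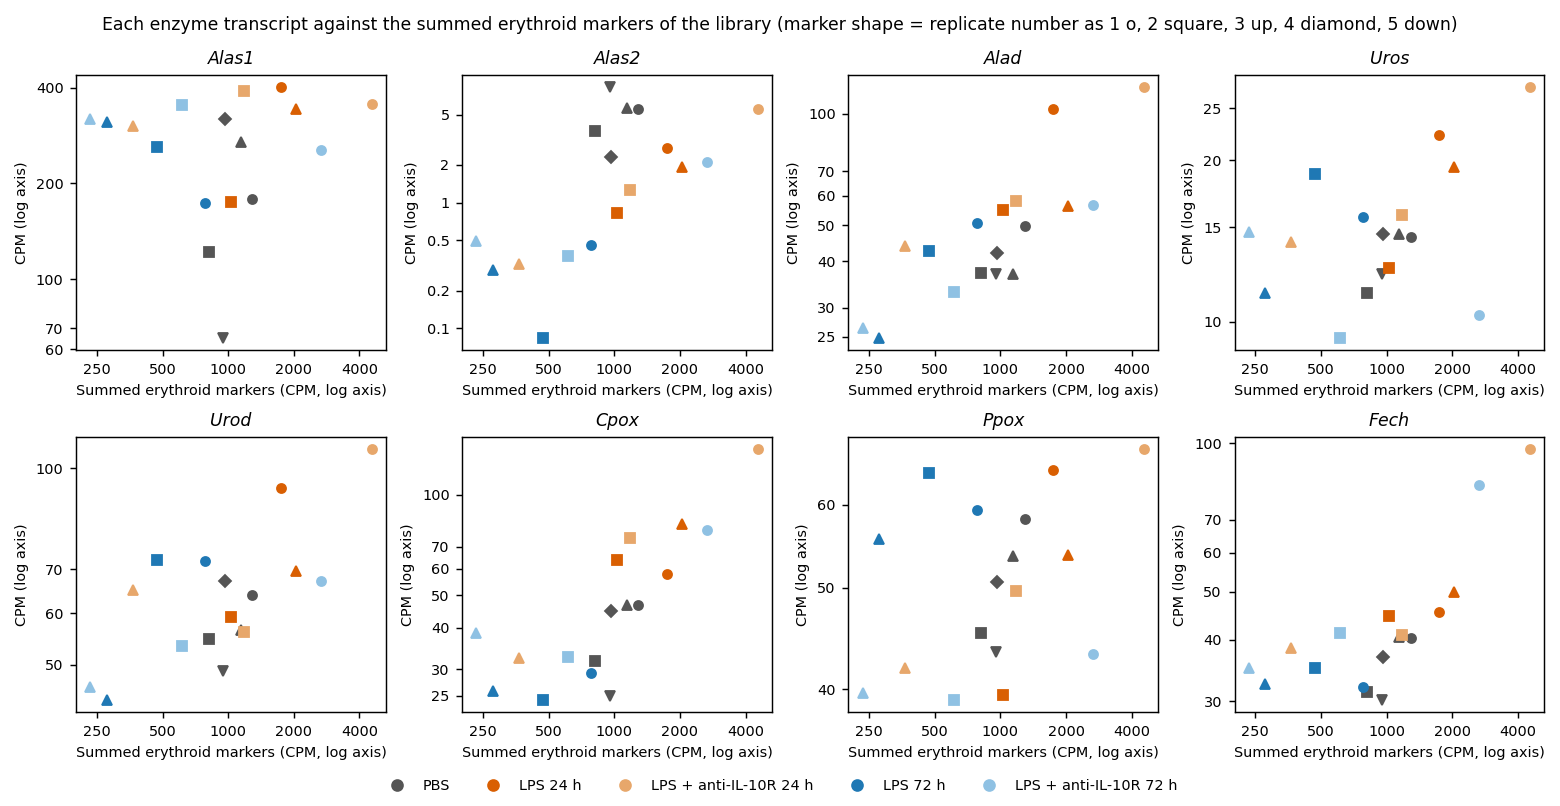
CPM of each enzyme transcript (log axis) against the summed CPM of 29 erythroid markers in the same library (log axis), with 1 point per library, colour for the group and shape for the replicate number. The antibody libraries numbered 1, at 4570 and 2660 CPM of markers, lie at the upper right for *Fech* and *Cpox*, while *Alas1* shows no such order.

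The transcripts also moved with each other in part. *Alad* and *Urod*, both cytosolic, had the closest pattern over the 17 libraries (r 0.90, and 0.91 within groups), and *Cpox* and *Fech*, both mitochondrial, the next (0.86 and 0.86). The pairs did not sort by compartment. *Ppox*, also mitochondrial, had r 0.20 with *Cpox* and 0.19 with *Fech* (0.65 and 0.64 within groups). With the cytosolic *Uros* and *Urod* it had 0.75 and 0.66 (0.82 and 0.77 within groups). *Alad* had 0.75 with *Cpox* and 0.71 with *Uros* (0.64 and 0.59 within groups). *Alas1* and *Alas2* had r -0.36, and -0.14 within groups. Each point of these correlations shares its library's depth and scaling.

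Among genes at or above the median level, those with the highest r with *Alas1* over the 17 libraries were *Hp* (0.933), *Gsr* (0.906), *Ms4a3* (0.904), *Igsf6* (0.895) and *Naip2* (0.894). *Hp* encodes haptoglobin, which binds free hemoglobin and is stored in neutrophil granules, *Gsr* encodes glutathione reductase, and *Ms4a3* is a marker of granulocyte and monocyte progenitors. *Hp* stood at 131 ± 74.9 CPM (SD, n = 5) with PBS and at 277 ± 134 (n = 3) with LPS at 24 h. For *Alas2* they were *Cables2* (0.801), *Rhbdd2* (0.794), *Slc40a1* (0.761), *Pitpnm2* (0.760) and *Ormdl3* (0.759). *Slc40a1*, which encodes the iron exporter ferroportin and is abundant in iron-recycling macrophages, stood at 184 ± 200 CPM (SD, n = 5) with PBS, 20.7 ± 7.63 (n = 3) with LPS at 24 h and 5.72 ± 1.15 (n = 3) at 72 h.

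Several genes around the pathway passed the test at 24 h. Of 13 tested genes of heme and porphyrin transport, of which *Tspo2* is also among the erythroid markers, 6 rose and 0 fell with LPS at 24 h against PBS, where 37.6% of all genes were called, 19.1% as higher. They included *Slc25a39*, a mitochondrial glutathione carrier, from 88.7 ± 13.1 CPM (SD, n = 5) to 167 ± 47.8 (n = 3), and *Tspo*, an outer mitochondrial membrane protein that binds porphyrins, from 131 ± 37.8 to 265 ± 82.6. *Abcb6*, a porphyrin transporter (log2 change 0.86, SE 0.276, adjusted p = 0.0227), *Tmem14c*, which carries protoporphyrinogen in mitochondria (0.73), *Flvcr1*, described as a heme exporter (0.72), and *Pgrmc1*, a heme-binding membrane protein (0.43), rose as well. All 6 were above PBS in every LPS library, where 42.8% of all tested genes had libraries that did not overlap. Because the 6 were called from these same libraries, this adds no support. With LPS and antibody at 24 h, where 24.2% of all genes were called, 11.7% as higher, also 6 rose, among them *Abcb10* (0.94, SE 0.26, adjusted p = 0.0193), an inner mitochondrial membrane transporter. That count was 1 without antibody library 2. Between 24 h and 72 h after LPS 6 fell and 0 rose, where 31.1% of all genes were called, 16.4% as lower. The list's median was 0.60, 0.69 and -0.64 in these comparisons, against -0.03, 0.00 and 0.02 over all tested genes. Without LPS library 1 at 24 h, 3 rose with LPS at 24 h and 4 fell between the times.

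Of 10 genes of mitochondrial iron supply and iron-sulfur cluster assembly, which ferrochelatase and other enzymes depend on, 6 rose and 0 fell with LPS at 24 h, beside the same 37.6% of all genes called and 19.1% as higher. With upper-quartile factors 3 rose. *Glrx5*, a glutaredoxin that hands on iron-sulfur clusters, went from 35.3 ± 6.95 CPM (SD, n = 5) to 88.5 ± 29.5 (n = 3), a log2 change of 1.33 (SE 0.31, adjusted p = 0.0044). *Hspa9*, a mitochondrial chaperone, went from 444 ± 48.6 to 931 ± 146 CPM (1.07, SE 0.124, adjusted p = 0.000314). *Fdx2* (1.13), *Lyrm4* (0.70), *Nfs1* (0.41) and *Iscu* (0.39), parts of the cluster assembly machinery, rose too, and 5 of the 10 fell between 24 h and 72 h after LPS, beside 16.4% of all genes called as lower. With the antibody, *Hspa9* was 783 ± 76.7 CPM (n = 3) at 24 h and still 818 ± 80.9 (n = 3) at 72 h, when LPS alone had 396 ± 31.1 (n = 3). The antibody effect on *Hspa9* at 72 h was a log2 difference of 1.05 (SE 0.143, adjusted p = 0.00122), and it differed from that at 24 h by 1.30 (SE 0.201, adjusted p = 0.00831).

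Of 9 genes that control heme synthesis, *Lonp1* and *Clpx*, mitochondrial proteases or unfoldases that act on ALA synthase, were, like *Hspa9*, lowest with LPS at 72 h. *Lonp1* stood at 115 ± 15.5 CPM (SD, n = 5) with PBS, 176 ± 7.71 (n = 3) with LPS at 24 h, 101 ± 2.57 (n = 3) with LPS at 72 h and 160 ± 3.61 (n = 3) with LPS and antibody at 72 h. The antibody effect at 72 h differed from that at 24 h by 0.68 (SE 0.166, adjusted p = 0.027) for *Lonp1* and by 0.56 (SE 0.158, adjusted p = 0.0471) for *Clpx*. For this difference 2 of the 9 control genes were called, and 1 of the 10 of mitochondrial iron supply. Of all tested genes 6.35% were called, 4.03% as higher. No gene of the control list was called for this difference without LPS library 1 at 24 h, antibody library 1 or 3 at 24 h, LPS library 1 or 2 at 72 h or antibody library 3 at 72 h. In the mitochondrial iron list 1 gene was called without each of the LPS and antibody libraries in turn. Over those fits, 231 to 1544 of all genes were called. In the control list, 3 rose with LPS at 24 h (*Eif2ak1*, the heme-regulated kinase, by 0.42, besides *Lonp1* by 0.62 and *Clpx* by 0.41) and 1 fell (*Ppargc1a*, a coactivator of mitochondrial genes and of *Alas1*, with a log2 change of -2.95), beside 37.6% of all genes called. *Ppargc1a* was low throughout, at 1.18 ± 0.532 CPM (SD, n = 5) with PBS and at 0 in 2 of 3 LPS libraries at 24 h. With LPS at 72 h against PBS, the edgeR fit of all libraries called 0 genes of the 4 lists around the pathway. At an unadjusted p below 0.05 there was 1 gene in each list but that of control, which had 0, and DESeq2 and the edgeR fit of only these groups each called 1 heme breakdown gene, as lower.

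Of the 4 heme breakdown genes, 1 was called with LPS at 24 h against PBS, where 37.6% of all genes were called. *Hmox1*, heme oxygenase 1, fell, with a log2 change of -3.68 (SE 0.991, adjusted p = 0.00952), from 59.7 to 521 CPM over the PBS libraries to 9.13 to 18.1 CPM. It was 3.14 to 5.22 CPM with LPS at 72 h. The 14 macrophage markers, a list that includes *Hmox1* and *Slc40a1* themselves, were lower as well with LPS at 24 h. Their sum was 1550 ± 1380 CPM (SD, n = 5) with PBS and 181 ± 17.4 (n = 3) with LPS at 24 h. Of the 14, 14 were called lower, where 2767 of all 14920 tested genes were. At 72 h their sum was 348 ± 97.6 (n = 3), above that at 24 h. Within it, the mean of *Csf1r* was 75.4 CPM at 24 h and 228 CPM at 72 h. The median log2 change of the 14 between these times was -0.14. Of them 2 were called higher and 0 lower, where 31.1% of all genes were called. The mean of *Hmox1* was 14.1 CPM at 24 h and 4.17 CPM at 72 h. The part of macrophages in the change of *Hmox1* and of *Slc40a1* was not tested.

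**Figure D4:**
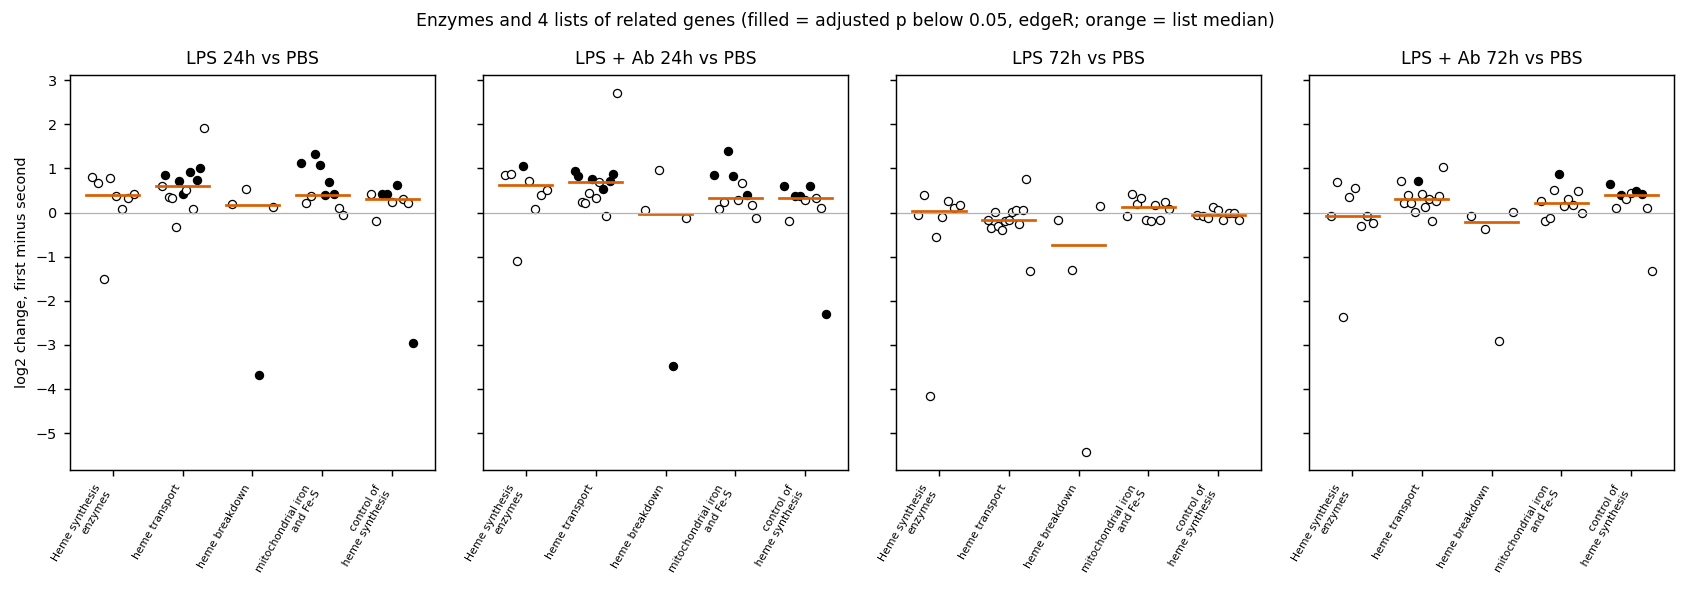
Log2 differences of genes of heme transport, heme breakdown, mitochondrial iron supply and control of heme synthesis and of the enzymes themselves, for each treated group against PBS, from edgeR's quasi-likelihood fit. Points are genes, filled where the adjusted p was below 0.05, and orange lines are medians of the lists. With LPS at 24 h the filled points of the transport and iron lists lie above 0 and the filled point of the breakdown list is *Hmox1* (-3.68).

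In the GENCODE vM21 annotation of GRCm38, *Alas1* lies at chr9:106233455-106248654, *Alas2* at chrX:150547375-150570638, *Alad* at chr4:62509169-62519918 and *Urod* at chr4:116989965-116994413. *Uros* lies at chr7:133686243-133710072, *Cpox* at chr16:58670292-58717636, *Ppox* at chr1:171275990-171281186 and *Fech* at chr18:64452914-64490251. The loci of *Alas1*, *Alas2*, *Uros*, *Cpox* and *Ppox* overlap a counted gene on the opposite strand (*4930500F10Rik*, *Apex2*, *Bccip*, *Gpr15* and *B4galt3*). Because the strandedness of the counting is not given in the sources used here, reads of these pairs may have been shared or dropped, and the counts of those 5 enzymes are less certain than those of *Alad*, *Urod* and *Fech*.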

How the data were processed

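RNA was measured by sequencing of polyadenylated RNA from sorted HSPC in 17 libraries. The authors deposited 1 table of raw counts, whole-number read counts per gene symbol. Per the submitters' processing notes, HISAT2 2.2.0, Subread, featureCounts 2.1.1, R 4.3.2, DESeq2 and the build GRCm38 were used, while their settings, the annotation, strandedness and the handling of multi-mapping reads are not given in the sources used here. All 17 columns were matched to samples by their labels and 0 were left over.

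Counts were fitted with edgeR 4.0.16 in R 4.3.3 (filterByExpr with minimum count 10 and minimum total 15, TMM factors, quasi-likelihood test, 1 fit over all 17 libraries with a mean per group). P-values were adjusted by Benjamini-Hochberg over 14920 genes in each of 9 comparisons, and genes below 0.05 were called. Standard errors and 95% intervals are approximate, from the F statistic. Counting error limits *Alas2* most. Correlations used log2 CPM with a prior count of 2. The procedure was tested on counts simulated from the fitted spread, independently for each gene, so shared differences between libraries were not part of that test. No pair of libraries had identical counts. Correlations of deviations from the group means, between libraries with the same number in the titles, were 0.191, 0.188 and 0.158 for LPS at 24 h and PBS. All exceeded 0.1, so the blocked fit stands beside that comparison. No other comparison met this. Unequally numbered libraries were not compared and the labels state no pairing, so this does not show that libraries were paired.

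Alternatives were DESeq2 1.42.0's size factors and Wald test, upper-quartile factors, no filter, only the groups compared, the replicate block and leaving out each library. Named genes are all 8 enzymes, the 5 genes closest in pattern to each ALA synthase, and called genes of the 4 lists around the pathway, at most the 5 with the largest changes per list and comparison, with others named where a count is spelled out. Members, lists and comparisons were chosen with earlier results of these data known. Genes without a protein or promoter sequence in the tables used are named only. A listed erythroid marker is not reported here and was left out of both marker sums.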

Additional observations from a re-analysis of the deposited data

Results flagged for a closer look

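Between 24 h and 72 h after LPS, the test of the difference between the times was passed by *Alas2*, with a log2 difference of -2.66 (adjusted p = 0.0494, 72 h below 24 h in all libraries), and by *Cpox*, with -1.36 (adjusted p = 0.0226, likewise in all libraries). Relative to the PBS mean, all LPS libraries of *Fech* were higher at 24 h and lower at 72 h, with a log2 difference between the times of -0.49, which the fit of all libraries did not call (adjusted p = 0.259) and a fit of only these groups did (-0.48, adjusted p = 0.0351). *Ppox* at 72 h was above the PBS mean in all LPS libraries and below it in all libraries with LPS and antibody, with a log2 difference of -0.55 (adjusted p = 0.0566 in edgeR's test, 0.0326 in DESeq2's). In the PBS group, no library of any of the 8 enzymes was far enough from the others to be singled out by Dixon's test, and groups of 3 were not tested.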

How the results depend on the processing

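Of the log2 differences of the 8 enzymes under the alternatives, 921 kept their sign and their side of the threshold, 31 newly passed it, 21 no longer did and 57 changed sign. The cause was not tested. Upper-quartile factors, which moved the median of all genes to -0.16, -0.11 and -0.10 for LPS at 24 h, LPS and antibody at 24 h and LPS and antibody at 72 h against PBS and to 0.13 between the times after LPS, called 0, 0, 1 and 1 of the 8 there, and 1, *Ppox*, between the antibody and LPS groups at 72 h. They turned *Ppox* to -0.07 and -0.03 in both 24 h comparisons with PBS. Without a filter, 1 was called between the times after LPS, and there, as with upper-quartile factors, *Alas2* was the one lost. DESeq2's Wald test called 1, 2, 1 and 1 against PBS (LPS at 24 h, with antibody at 24 h, LPS at 72 h, with antibody at 72 h) and 1, *Ppox*, between the antibody and LPS groups at 72 h. Fits of only the groups compared called 4 with LPS at 24 h, 1 with LPS at 72 h and 1 with antibody at 72 h against PBS and 3 between the times after LPS, and *Alad* became 0.01 between the 72 h groups.

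Only for LPS at 24 h and PBS did every equally numbered pair exceed 0.1 in the check of deviations. Unequally numbered libraries were not compared, so the check cannot show pairing. Between the antibody groups at 72 h and 24 h, numbers 1 and 3 correlated at 0.723 and 0.697 but number 2 at -0.022. The fit with the replicate block called 4 for LPS at 24 h, 3 between the times after LPS, 0 with antibody at 24 h and 1 with LPS at 72 h, both against PBS, and an unblocked fit of libraries 1 to 3 called 2 for LPS at 24 h. It called *Alad* between the times after LPS (-0.84, adjusted p = 0.022), 1 heme breakdown gene with LPS at 72 h, 0 transport genes with antibody at 24 h and, for the antibody's difference between times, 0 of both lists in which genes had been called. Under the block, *Ppox* was 0.00 with LPS and -0.02 with antibody at 24 h against PBS, and *Alas2* was -0.06 and *Alad* 0.00 between the antibody and LPS groups at 24 h.

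Leaving out 1 library gave 0 to 1 called for LPS at 24 h, 0 to 3 for antibody at 24 h, 0 to 1 for antibody at 72 h (all against PBS) and 0 to 2 between the times after LPS. *Alas2* passed with antibody at 24 h without its library 1 (-2.67, adjusted p = 0.0285), *Alas1* there without PBS library 4 (1.14, 0.0412), *Alad* (1.15, 0.0284) and *Fech* (0.98, 0.0333) there without antibody library 3, *Alas2* with antibody at 72 h without its library 1 (-3.49, 0.0497), and *Alad* with LPS at 24 h without its library 2 (0.97, adjusted p = 0.0486). Signs changed over these fits against PBS for *Ppox* (-0.09 to 0.24 with LPS at 24 h, -0.13 to 0.26 with antibody at 24 h), *Alad* (-0.27 to 0.19 with LPS at 72 h, -0.43 to 0.14 with antibody at 72 h), *Urod* (0.00 to 0.30 and -0.20 to 0.05 there) and *Cpox* (-0.11 to 0.61 with antibody at 72 h). Between the antibody and LPS groups at 24 h all 8 changed sign: *Alas1* -0.09 to 0.45, *Alas2* -1.17 to 0.93, *Alad* -0.48 to 0.41, *Uros* -0.28 to 0.28, *Urod* -0.29 to 0.26, *Cpox* -0.35 to 0.65, *Ppox* -0.20 to 0.21 and *Fech* -0.24 to 0.57. At 72 h *Alad* ran from -0.36 to 0.20, and between the antibody times *Alas2* from -2.43 to 0.32 and *Fech* from -0.63 to 0.41. For the difference between the antibody effects, *Alas1* ran from -0.16 to 0.40, *Alad* from -0.45 to 0.46, *Urod* from -0.45 to 0.11 and *Fech* from -0.10 to 0.91.

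Without both antibody libraries numbered 1, a setting chosen after seeing the data, 1 was called with antibody at 72 h against PBS. *Ppox* was -0.12 with antibody at 24 h and *Cpox* -0.11 at 72 h against PBS. Between the antibody and LPS groups at 24 h the values were *Alas2* -1.16, *Alad* -0.47, *Uros* -0.27, *Urod* -0.28, *Cpox* -0.34, *Ppox* -0.19 and *Fech* -0.23, and the difference between the antibody effects was 0.11 for *Alad*. Over all genes, LPS at 72 h against PBS gave 3 called genes, but 172 by DESeq2, 99 with only the groups compared and 84 with the block. The block called 0 genes in both antibody groups against PBS. The 72 h antibody comparison gave 2256, but 1123 with only the groups compared and 344 with the block, and the difference between antibody effects gave 947, but 1698 by DESeq2, 617 without a filter, 286 and 44. Leaving out 1 library lowered the counts of called genes from 5616 to 3361 for LPS at 24 h (without its library 1), and from 2256 to 769 and 947 to 231 (both without LPS library 1 at 72 h) for the 72 h antibody comparison and the difference between antibody effects. Depth limits *Alas2* at 72 h, where a library held as little as 1 count.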
